A study of Mus musculus with 6 samples.

Results

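Reg lectins and acute phase antimicrobials are 9 genes whose secreted proteins defend the gut surface: the Reg lectins Reg1, Reg3a, Reg3b, Reg3g and Reg4, the lipocalin Lcn2 and the serum amyloid A proteins Saa1, Saa2 and Saa3. They were taken as a fixed list of names, and every probe set that the platform annotation pairs with only one of these genes was used, which gave 11 probe sets of 45101 on the array. Cells of the small-intestinal epithelium were detached with EDTA from C57BL/6 mice at an age of 14 days, and 1 Affymetrix array was hybridized per sample. The 3 replacement samples had the genotype Ecadflox/Ncad;Vil-Cre: N-cadherin (Cdh2) took the place of E-cadherin (Cdh1), the cadherin of epithelial adherens junctions, through a Cre recombinase driven by the villin promoter, which is active in gut epithelium. The 3 control samples came from littermates that kept E-cadherin, and their alleles are given no further than "Control". Since no label ties a sample to its own animal, p-values cover only the spread among these samples, which may be technical.

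Reg lectins are small C-type lectins released into the gut lumen. Reg3g binds the peptidoglycan of Gram-positive bacteria and Reg3b also acts on Gram-negative ones, and in the small intestine enterocytes and Paneth cells make both. Their transcripts are low in the young gut, rise as bacteria settle around weaning, and respond to signals that run through MyD88 and through interleukins that activate STAT3. Serum amyloid A proteins carry retinol and lipids and, like lipocalin, which captures bacterial siderophores, are induced by NF-kB, STAT3 and C/EBP factors during inflammation.

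Values are linear intensities, with each array scaled by the authors to the same trimmed mean, and a difference is replacement minus control in log2 units after a floor of 16. Control 2 and control 3 differed by an SD of only 0.115 on the log2 scale over 5109 bright probe sets, against 0.347 to 0.564 for other pairs within a group, so their mean was used as 1 replicate (n = 2 control and n = 3 replacement). Cdh1 read 2757, 2335 and 2204 in the control arrays and 1073, 1175 and 1357 in the replacement arrays, whereas no array reached the floor for Cdh2 (13.5 at most), so Cdh2 does not check the exchange. Of 12 enterocyte markers 11 were measured, with a summed intensity of 32133 to 34610 in controls and 27440 to 37153 in replacement arrays. Xist and Y-linked transcripts put control 1, replacement 2 and replacement 3 among females and control 2, control 3 and replacement 1 among males. The same female arrays held bright pancreatic acinar transcripts, described below, so sex and acinar signal cannot be told apart here. The number of arrays limits the precision. In bulk samples, more cells of a type and more RNA per cell cannot be told apart.

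Of the 9 members 7 reached the floor on at least 3 arrays and were tested. Reg3g, Reg1 and Saa1 rose in the replacement epithelium and no member fell, at a limma adjusted p under 0.05 over 12994 genes. Over all those genes 4.46% rose and 4.66% fell. In 5 tested members, Reg1, Reg3a, Reg3b, Reg3g and Saa1, every replacement array stood above every control array, as it did in 17.8% of all genes. The median difference of the 7 tested members was 1.99, against -0.02 over all genes. The members were listed with earlier results of these data known, so these shares describe the list and do not test it.

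**Figure D1:**
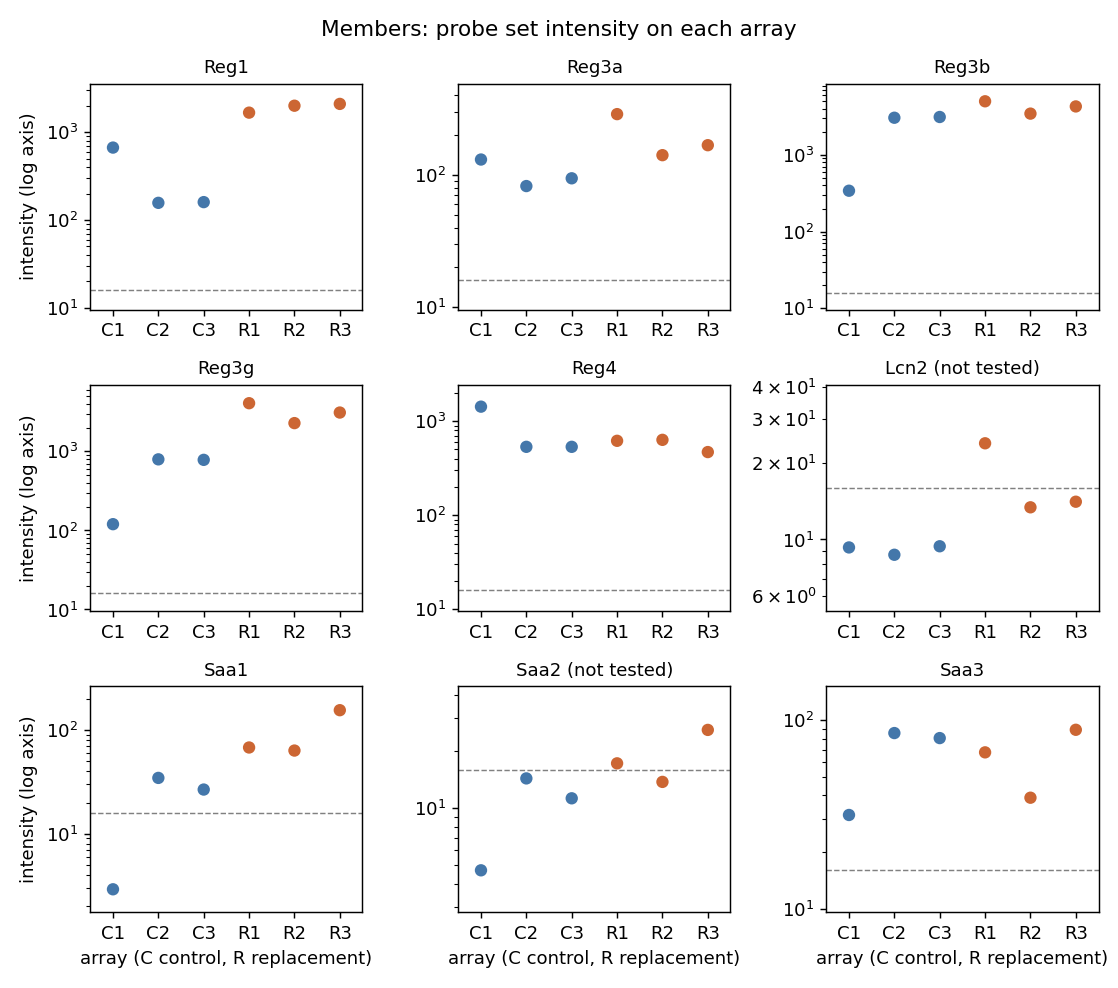
Probe set intensity (log axis) of each member on the 3 control arrays (C1 to C3) and the 3 replacement arrays (R1 to R3); 1 point is 1 array and the dashed line is the floor of 16. All replacement points lie above all control points for Reg1, Reg3a, Reg3b, Reg3g and Saa1, C1 lies far below C2 and C3 for Reg3b and Reg3g and above them for Reg1 and Reg4, and Lcn2 and Saa2 lie at or near the floor.

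Reg3g, the lectin against Gram-positive bacteria, gave the largest difference of the members. Its intensity was 120, 794 and 783 in the control arrays and 4079, 2283 and 3107 in the replacement arrays. Control 1 was the lowest array by far, and the groups did not overlap. Reg3g rose 9.98-fold, from a geometric mean of 308 to 3070 (log2 difference 3.32, SE 0.64, limma adjusted p = 0.0124). The rise was present against either control replicate: 22.2-fold for replacement 2 and 3 over control 1, and 5.17-fold for replacement 1, the brightest array, over control 2 and 3. The lowest replacement array stood 2.87-fold above the highest control array. The call was lost without control 1 (1.96, adjusted p = 0.142), without control 2 and 3 together (4.68, adjusted p = 0.0680) and when replacement 3 was dropped (3.31, adjusted p = 0.0883). The call was also lost with the trend and robust options of eBayes (adjusted p = 0.134), with no filter (0.261), without eBayes (0.274) and with a replicate block on averaged controls (3.31, adjusted p = 0.123). It was kept with sex as a covariate (3.57, SE 0.41, adjusted p = 3.67e-04).

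Reg3b, its close relative, was already bright in most controls. Its intensity was 341, 3062 and 3132 in the control arrays and 5021, 3466 and 4301 in the replacement arrays. Control 2 and 3 came close to the replacement arrays, and control 1 stood 9.07-fold below them. The log2 difference was 2.04 (SE 0.71), a 4.10-fold difference that did not pass (limma adjusted p = 0.114). Against control 2 and 3 replacement 1 was 1.62-fold higher, and against control 1 replacement 2 and 3 were 11.3-fold higher. Its size rested on the control replicate used: it was 0.44 without control 1 (adjusted p = 0.543) and 3.63 without control 2 and 3 together (adjusted p = 0.0680). It passed only with sex as a covariate (2.30, SE 0.49, adjusted p = 0.0135) among the 22 alternatives. A further probe set of Reg3b, whose suffix marks possible shared sequence, gave 230, 2684 and 2753 in controls and 5533, 3654 and 4764 in replacement arrays, the same order of control arrays.

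The control spread of these lectins is rare on the array. Only 17 of 12994 genes (0.131%) differed as much as Reg3b between control 1 and the mean of control 2 and 3, and 32 (0.246%) as much as Reg3g (6.56-fold). The replacement arrays spanned 1.45-fold for Reg3b and 1.79-fold for Reg3g. The levels of Reg3b and Reg3g were thus uneven among the controls and more even among the replacement arrays. This was not particular to them. Reg1 differed 4.21-fold between the same controls and spanned 1.26-fold among the replacement arrays, and Reg4 2.67-fold and 1.35-fold. Saa3 gave 2.64-fold and 2.29-fold. Reg3a ran the other way, with 1.48-fold and 2.04-fold. Saa1 gave at least 1.90-fold, with control 1 under the floor, and 2.46-fold. The control value is a gap to a mean and the replacement value a span from lowest to highest, so their sizes compare only roughly.

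Since Reg3b and Reg3g shared this order of control arrays, the RefSeq sequence of the 250 bases before each gene's start is shown. Both lie on chromosome 6, Reg3b on the plus strand at chr6:78370635-78370884 and Reg3g on the minus strand at chr6:78468875-78469124 (GRCm38.p6), each printed 5′ to 3′ in the direction of the gene. Capitals mark a match to the STAT motif TTCNNNGAA.
Reg3b: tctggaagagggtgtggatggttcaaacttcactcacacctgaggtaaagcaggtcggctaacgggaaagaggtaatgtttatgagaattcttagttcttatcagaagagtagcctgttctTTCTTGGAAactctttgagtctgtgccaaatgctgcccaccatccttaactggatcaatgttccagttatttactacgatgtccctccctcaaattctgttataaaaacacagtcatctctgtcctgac
Reg3g: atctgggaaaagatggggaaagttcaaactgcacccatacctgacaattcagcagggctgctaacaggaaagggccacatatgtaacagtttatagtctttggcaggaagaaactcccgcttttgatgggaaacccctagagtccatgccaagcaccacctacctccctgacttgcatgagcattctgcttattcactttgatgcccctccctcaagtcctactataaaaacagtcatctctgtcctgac
The windows were identical at 68.4% of aligned positions, against 36.6 to 52.6% for the 34 pairs of member promoters other than this one and Saa1 with Saa2. Reg3b held 1 match, 129 to 121 bases before the start, and Reg3g none. The STAT motif was found, on either strand, in 7.02% of 32851 RefSeq promoter windows of the same length and in 1 of 9 member windows. An NF-kB motif (GGG, any 3 bases, then TTCC, on both strands) occurred in 4.65% of windows and in no member. Other forms of the NF-kB motif were not searched, so the members may hold such sites. The looser C/EBP motif TTNNGNAA, also searched on both strands, occurred in 36.8% of windows and in 5 members (Reg3a, Lcn2, Saa1, Saa2 and Saa3). These are matches of letters only.

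Reg1, a lectin first described in pancreas and in regenerating tissue, rose too. Its intensity was 666, 157 and 160 in the control arrays and 1662, 1992 and 2089 in the replacement arrays. Here control 1 was the highest control, the opposite of Reg3b and Reg3g, and the replacement arrays lay within 1.26-fold of each other. Reg1 rose 5.87-fold, from a geometric mean of 325 to 1905 (log2 difference 2.55, SE 0.49, limma adjusted p = 0.0127). The rise was 3.06-fold in replacement 2 and 3 over control 1 and 10.5-fold in replacement 1 over control 2 and 3. The call was lost without control 1 (3.59, adjusted p = 0.0574), without control 2 and 3 together (1.52, adjusted p = 0.128), when replacement 2 was left out (2.52, adjusted p = 0.0567) and when replacement 3 was (2.49, adjusted p = 0.0921). The call was also lost with no filter (adjusted p = 0.250), without eBayes (0.266) and with a replicate block on averaged controls (2.49, adjusted p = 0.107). It held with sex as a covariate (2.38, SE 0.36, adjusted p = 0.00201).

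Acinar cells of the pancreas make Reg1 and its relative Reg2, so digestive enzymes of that cell type were read beside them. All 11 measured acinar markers of 14 listed were at or above the floor in control 1, replacement 2 and replacement 3, with summed intensities of 2666, 6202 and 4417. The sums were 760, 828 and 553 in control 2, control 3 and replacement 1, where 6, 5 and 5 markers lay under the floor, among them Cpa1 (carboxypeptidase) and Cela2a (elastase). None of the 11 markers changed between the groups at an adjusted p under 0.05, and their median difference was 1.34. Cpb1, a carboxypeptidase, had a log2 difference of 2.36 (SE 1.41), and Ptf1a, an acinar transcription factor, 0.49 (SE 0.24). Reg1 was 10.5-fold higher in replacement 1 than in control 2 and 3, all 3 of them arrays with low acinar transcripts. That value rests on 1 replacement array and 1 averaged control replicate. Reg3g was highest in replacement 1. The lower acinar sum of that array came from the marker Ctrb1, which read 98.5 there and 406.5 and 426.2 in control 2 and 3. The part of acinar cells in the levels of Reg1 and Reg3g was not tested. Reg2 read 62.0, 25.6 and 33.8 in controls and 58.5, 160 and 195 in replacement arrays. It was brightest in replacement 2 and 3, overlapped between the groups and did not pass (log2 difference 1.52, SE 0.50, limma adjusted p = 0.0974).

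**Figure D2:**
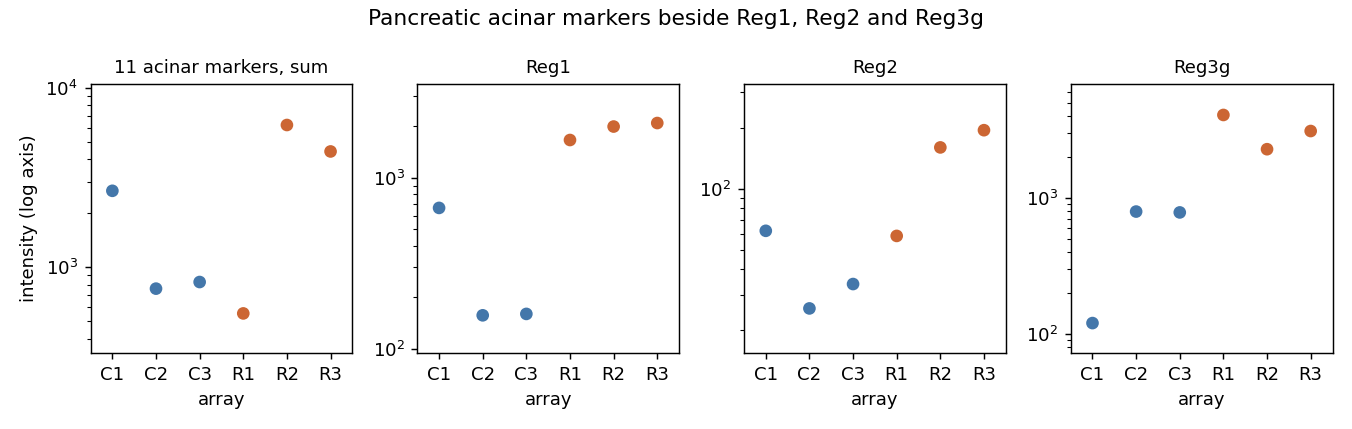
Summed intensity of 11 pancreatic acinar markers beside the intensities of Reg1, Reg2 and Reg3g on each array (log axes; C control, R replacement; 1 point is 1 array). The acinar sum is high in C1, R2 and R3 and low in C2, C3 and R1; Reg1 was 10.5-fold higher in R1 than in C2 and C3, and the part of acinar cells in Reg1 was not tested.

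Reg3a, another lectin of the Reg3 group, moved less. It read 131, 82.3 and 94.2 in the control arrays and 288, 141 and 168 in the replacement arrays. The groups were separated only narrowly, since replacement 2 lay 1.08-fold above control 1. The log2 difference was 0.82 (SE 0.34) and did not pass (limma adjusted p = 0.169). Reg3d, the remaining Reg3 gene of the same cluster, gave 44.9, 41.9 and 22.4 in controls and 50.7, 45.9 and 41.2 in replacement arrays, with a difference of 0.30 (SE 0.26, adjusted p = 0.528). In the RefSeq order on chromosome 6 the genes run Reg3b, Reg3d, Reg3a, Reg2, Reg1 and Reg3g, with 1 pseudogene between the last pair. The called members Reg1 and Reg3g are thus neighbours among protein-coding genes, although their control arrays ran in opposite order.

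Reg4, a Reg lectin of secretory cells that lies apart from this cluster on chromosome 3, did not follow the others. Its intensity was 1428, 534 and 534 in the control arrays and 619, 633 and 470 in the replacement arrays. Only control 1 stood out, 2.67-fold above control 2 and 3, and the groups overlapped. The log2 difference was -0.62 (SE 0.38, limma adjusted p = 0.370), and it was 0.0915 without control 1. Secretory lineage markers were also high in control 1: the sum of 6 Paneth markers was 6819 there, 2791 and 2912 in control 2 and 3 and 2757 to 4304 in replacement arrays. The sum of 9 goblet markers was 19691 in control 1 and 14384 and 14572 in the other controls, against 11812 to 22235 in replacement arrays. Their part in the level of Reg4 was not tested. Lyz1, the Paneth lysozyme, had a difference of -0.53 (SE 0.36, adjusted p = 0.425) and Itln1, a lectin of Paneth and goblet cells, -1.09 (SE 0.44, adjusted p = 0.158). Mmp7, the protease that processes alpha-defensins, rose by 1.30 (SE 0.34, adjusted p = 0.0440), and Sox9 rose by 1.04 (SE 0.28, adjusted p = 0.0495). Of 12 listed Paneth markers 6 were measured, none of them a defensin, and 2 rose, while 4.46% of all genes rose. Both calls were lost when control 2, replacement 2 or replacement 3 was left out. Reg3b and Reg3g, which Paneth cells also express, gave 2.04 and 3.32.

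Saa1, an acute phase apolipoprotein made in liver and gut epithelium, rose from a low level. It read 2.9, 34.6 and 26.7 in the control arrays and 68.1, 63.6 and 156 in the replacement arrays. Control 1 lay under the floor, and all replacement arrays stood above all controls. With control 1 set to 16 the difference was at least 1.99 (SE 0.42), or at least 3.98-fold, with a limma adjusted p = 0.0193. Replacement 1 was 2.24-fold above control 2 and 3. The call was lost without control 1 (1.53, adjusted p = 0.336), without control 2 and 3 together (2.46, adjusted p = 0.199) and without replacement 3 (1.58, adjusted p = 0.0705). Nor did Saa1 pass with no filter (adjusted p = 0.263), without eBayes (0.275) or with a replicate block on averaged controls (1.58, adjusted p = 0.0963). With the filter raised to 64 Saa1 was too dim to be tested.

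The probe sets of Saa1 and Saa2 may not tell these neighbouring genes apart. A further probe set that the annotation gives to Saa1, with a suffix for shared sequence, carries an accession that RefSeq assigns to Saa2. It read 8.6, 23.6 and 16.9 in controls and 57.1, 47.0 and 74.1 in replacement arrays, and when every probe set was tested it rose by at least 1.71 (SE 0.28, limma adjusted p = 0.0123). The only probe set named Saa2, with a suffix for possible cross-hybridization, read 4.7, 14.4 and 11.3 in controls and 17.3, 13.8 and 26.0 in replacement arrays. Just 2 of its 6 arrays reached the floor, so it was not tested. The 250 bases before the starts of both genes are shown because they are so alike: Saa1 on the minus strand at chr7:46742981-46743230 and Saa2 on the plus strand at chr7:46751583-46751832 (GRCm38.p6, RefSeq), 5′ to 3′ in the direction of each gene. Capitals mark matches to the C/EBP motif TTNNGNAA on either strand, here all on the reverse strand.
Saa1: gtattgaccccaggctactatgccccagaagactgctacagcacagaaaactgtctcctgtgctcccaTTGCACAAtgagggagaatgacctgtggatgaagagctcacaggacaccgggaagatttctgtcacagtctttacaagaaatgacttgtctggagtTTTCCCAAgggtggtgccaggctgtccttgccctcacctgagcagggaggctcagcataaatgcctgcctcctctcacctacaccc
Saa2: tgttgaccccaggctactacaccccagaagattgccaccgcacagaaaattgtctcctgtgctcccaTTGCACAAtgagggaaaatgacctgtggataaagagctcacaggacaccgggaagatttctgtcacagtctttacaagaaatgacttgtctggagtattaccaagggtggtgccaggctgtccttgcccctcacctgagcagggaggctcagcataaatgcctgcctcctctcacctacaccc
These windows were identical at 94.8% of aligned positions. A match stood 182 to 175 bases before the start in Saa1 and 183 to 176 bases before it in Saa2, and a second match, 86 to 79 bases before the start, was found only in Saa1 among this pair.

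Saa3, the serum amyloid of macrophages and inflamed epithelium, showed no shift beyond its spread. It read 31.5, 85.7 and 80.6 in the control arrays and 67.7, 38.9 and 89.2 in the replacement arrays, with the groups interleaved. The log2 difference was 0.27 (SE 0.45, limma adjusted p = 0.774), and it was -0.43 without control 1. Saa4, a constitutive member of the family, did not pass the filter. Lcn2, the siderophore-binding lipocalin, lay under the floor in all control arrays (9.3, 8.7 and 9.4) and read 24.0, 13.4 and 14.1 in the replacement arrays. Only replacement 1 reached 16, so Lcn2 was not tested and no fold is given. Neutrophils store much Lcn2, and their markers were dim: 6 of 14 were measured, with sums of 140 to 180 in controls and 98.2 to 203 in replacement arrays, while S100a8, S100a9 and Mpo did not pass the filter. None of these 6 passed the test.

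**Figure D3:**
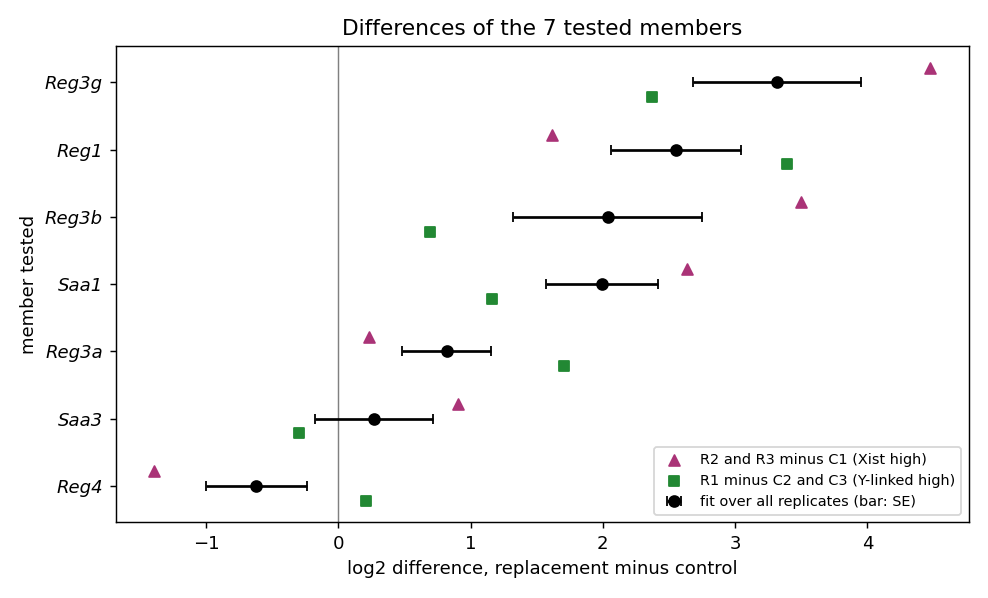
Log2 difference, replacement minus control, for the 7 tested members: black points with SE from the limma fit (n = 2 and 3), triangles for replacement 2 and 3 minus control 1, squares for replacement 1 minus control 2 and 3. Both kinds of contrast are above 0 for Reg3g, Reg1, Reg3b, Saa1 and Reg3a, and they lie on opposite sides of 0 for Saa3 and Reg4.

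Of 39 measured cytokine, receptor and signalling genes linked to these members, feedback inhibitors such as Socs3 among them, 1 passed, a rise. Over all genes 4.46% rose and 4.66% fell. Transcripts that miss the threshold may still differ, and pathway activity was not measured. Among 14 listed cytokines that induce them, 7 were measured and 1 rose: Il33, an alarmin stored in epithelial nuclei, from 72.6, 17.8 and 18.7 in controls to 463, 420 and 379 in replacement arrays (log2 difference 3.53, SE 0.48, limma adjusted p = 0.00220). Its difference was 4.52 without control 1 (adjusted p = 0.0489) and 2.53 without control 2 and 3, where the call was lost (adjusted p = 0.0763). Il17a (-0.52, SE 0.25) and Il18 (0.48, SE 0.27) did not pass, Il6 and Tnf did not pass the filter, and Il22 was not analysed here. None of 12 measured receptors of these cytokines passed. Il17rc, a chain of the receptor for interleukin 17, had the smallest p (1.21, SE 0.34, adjusted p = 0.0536), followed by Il22ra1, which receives Il22 in epithelium (-0.64, SE 0.31, adjusted p = 0.239), and Ifngr2 (0.56, SE 0.27). Of 20 measured genes of STAT3, NF-kB and C/EBP signalling none passed. The NF-kB subunit Relb had 0.86 (SE 0.23, adjusted p = 0.0510), Stat3 itself -0.38 (SE 0.22, adjusted p = 0.351) and Cebpa -0.48 (SE 0.29). Socs3, the feedback inhibitor that STAT3 induces, read 280, 252 and 194 in controls and 240, 254 and 133 in replacement arrays (-0.31, SE 0.32, adjusted p = 0.616).

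Other inducible defence genes of the epithelium were mixed. Of 28 listed genes 15 were measured, 4 rose and none fell, with a median difference of 0.38. The shares over all genes were 4.46% higher and 4.66% lower. Fut2, the fucosyltransferase that coats enterocytes with fucose for gut bacteria, was under the floor in every control and at 54.4, 51.0 and 55.9 in replacement arrays, at least 3.36-fold higher (limma adjusted p = 0.00170). Duoxa2, the maturation factor of dual oxidase, rose from 22.7, 17.3 and 15.2 to 54.3, 45.9 and 66.4, at least 2.83-fold (adjusted p = 0.00883). Cxcl5, a neutrophil chemokine, was under the floor in every control and at 41.8, 54.3 and 29.3 in replacement arrays, at least 2.53-fold higher (adjusted p = 0.0209). Both Fut2 and Cxcl5 passed the filter only through their replacement arrays, and every control was set to the floor. A rise was thus the only call possible for these genes, and their p-values hold no control spread. Wfdc2, a secreted protease inhibitor, rose 2.61-fold (adjusted p = 0.0269). Pigr, which carries IgA across the epithelium, had 0.19 (SE 0.26), and Retnlb, Nos2 and S100a9 did not pass the filter. In the list named acute phase plasma proteins 10 of 26 genes were measured, none rose and 1 fell, with a median difference of 0.00222. That list also holds the intracellular metallothioneins Mt1 and Mt2. It was not split by the direction in which its genes respond, so its median does not measure an acute phase response. Mt2, a metallothionein, read 958, 1524 and 1639 in controls and 196, 226 and 633 in replacement arrays, a difference of -2.02 (SE 0.47, adjusted p = 0.0286). Mt1 had -1.38 (SE 0.42, adjusted p = 0.0767) and Ttr, the thyroxine carrier, -1.37 (SE 0.51, adjusted p = 0.132). Hp, Orm1 and the fibrinogen chains Fga, Fgb and Fgg did not pass the filter.

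**Figure D4:**
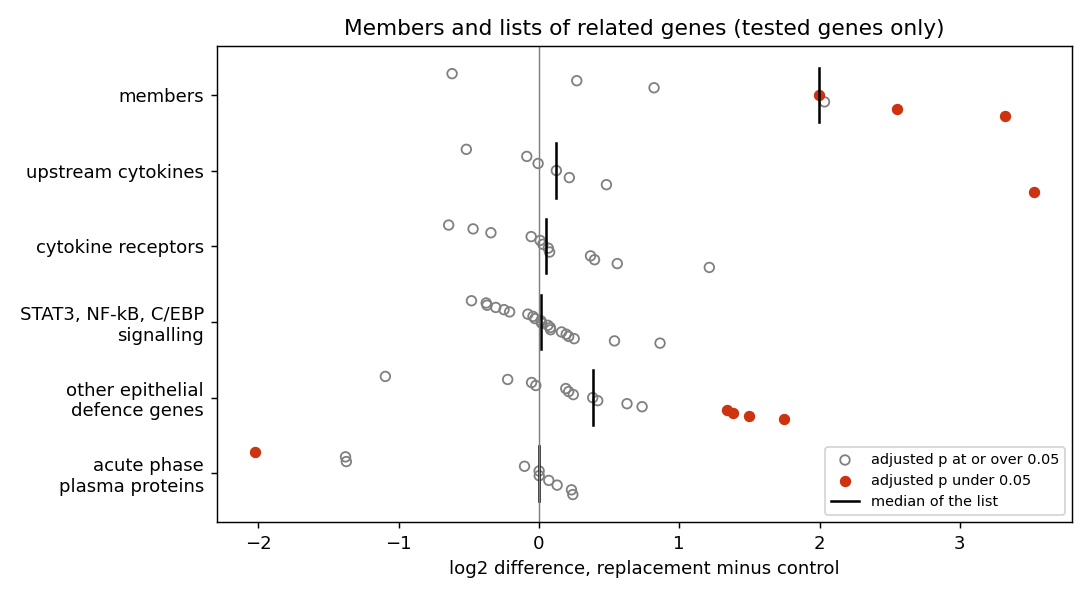
Log2 difference, replacement minus control, of every tested gene in the member list and in 5 lists of related genes; filled points have a limma adjusted p under 0.05, open points do not, and the black line is the median of the list. The members have a median of 1.99 and 3 filled points, while the cytokine receptors and the signalling list hold no filled point. For Fut2 and Cxcl5, under the floor in every control, a rise was the only call possible.

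Markers of immune and stromal cells were read as well. The shares over all genes were 4.46% higher and 4.66% lower. Of 15 lymphocyte markers 5 were measured and none passed; their sum was 125 to 200 in controls and 125 to 180 in replacement arrays. Of 12 macrophage markers 6 were measured: Cd14 rose by 2.64 (SE 0.26) and Mrc1 by 2.19 (SE 0.36), and Csf1r fell by 1.44 on the log2 scale. Cd68 (-0.46, SE 0.28), Adgre1 (-0.14, SE 0.27) and Lyz2 (-0.07, SE 0.41) did not pass the test. The complement genes C1qa, C1qb and C1qc and the integrin Itgam did not pass the filter. None of 7 measured fibroblast and smooth muscle markers passed, and control 1 stood apart with a sum of 1279, against 315 and 330.0 in control 2 and 3 and 496 to 571 in replacement arrays. None of 6 measured endothelial markers passed either, with a sum of 245 in control 1, 109 and 109 in control 2 and 3 and 118 to 178 in replacement arrays. Control 1 is also the array in which Reg3b and Reg3g were low and Reg1 and Reg4 high among the controls. Of 10 stomach markers 7 were measured and 1, Anxa10, rose. Anxa10 was under the floor in every control, so a rise was the only call possible for it. Of 12 enteroendocrine and tuft markers 2 fell and none rose: the hormone Gip had -2.06 (SE 0.53) and Sct -1.72 (SE 0.45), while Reg4, which endocrine cells also express, gave -0.62. Gip had -2.65 without replacement 1 and -1.59 without replacement 2. The calls of Gip and Sct were both lost when control 3, replacement 2 or replacement 3 was left out. The enterocyte keratin Krt20 rose by 1.35 (SE 0.31, adjusted p = 0.0274), and the peptidase Anpep fell by 1.16 on the log2 scale (SE 0.30, adjusted p = 0.0416). Of 9 goblet markers none passed. The part of these cells in the levels of the Reg lectins was not tested. Of the 16 genes called in all lists outside the members 14 no longer passed when control 1 was dropped, 15 when control 2 and 3 were, 9 when replacement 2 was and 9 when replacement 3 was, and none changed direction.

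For each tested member the genes with the most similar course over the 6 arrays were found by the root mean square difference between log2 values centred on each gene's mean. Nearest to Reg3b was Bcl2l15, a Bcl2-like protein, at 0.22, with 26.0, 339 and 334 in controls and 596, 296 and 427 in replacement arrays, so control 1 was the low array again. Nearest to Reg3g was Oxct1, the enzyme that starts the use of ketone bodies, at 0.41, with 87.6, 394 and 387 in controls and 1469, 1955 and 1555 in replacement arrays. Nearest to Reg1 was Arg2, the mitochondrial arginase, at 0.32, with 187, 38.4 and 54.6 in controls and 536, 536 and 363 in replacement arrays. Next to Reg1 came Cd44, a hyaluronan receptor, at 0.39. Nearest to Reg4 was Acaa1b, a peroxisomal thiolase, at 0.09, with 1122, 503 and 476 in controls and 515, 574 and 416 in replacement arrays. Nearest to Reg3a was the phospholipase Pla2g10 at 0.11, to Saa1 Sh3bgrl2 at 0.38 and to Saa3 Dbx1 at 0.21. None of the nearest genes of these 7 members was itself a member.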

How the data were processed

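The authors deposited linear probe set intensities for 45101 probe sets on 6 arrays, scaled to a mean of 100 without the lowest and highest 2% of values, as the values show. The tools named, per the submitters' processing notes, are GCRMA and limma; their versions and the way probes were summarized are not stated. GCRMA output is on a log2 scale and these values are linear, a case the plan allowed for.

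Intensities were floored at 16 and turned into log2, and probe sets with fewer than 3 of 6 arrays at 16 were left out. A floor understates differences of dim genes, and folds against floored arrays are bounds. Of 45101 probe sets 34945 had 1 gene symbol (932 had several and 9160 none), and 34741 matched the GRCm38.p6 gene table by Entrez identifier. The probe set with the highest mean stood for its gene. Control 2 and control 3 were averaged: their SD of 0.115 lay within the range of 18 hybridization controls over all array pairs (0.0812 to 0.134), though above that for this pair (0.0824). Groups were compared in R 4.3.3 with limma 3.58.1 (lmFit, eBayes) and Benjamini-Hochberg adjustment over 12994 genes; an adjusted p under 0.05 was called.

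Members and lists were chosen with earlier results of these data known. Named genes are the members, up to 3 genes with the smallest p of each list, and the 3 genes nearest each tested member. Lyz1, Wfdc2, Socs3, Pigr, Cpa1, Cela2a, Cd68, Adgre1, Lyz2 and the genes said to miss the filter were chosen after their values were seen. In simulated data with 12994 genes, the fit recovered 3% of genes changed by 1 and 64% of those changed by 2 on the log2 scale, among 200 changed. The simulated replicates were independent and their spread was assumed, not estimated from these arrays. The recovered shares are thus not the power of this data set. Promoters were scanned and aligned with Biopython 1.88, and figures drawn with matplotlib 3.10.9. Replicate numbers were not used as pairs in the main fit, and whether they pair the samples could not be told. Of 22 alternatives 21 were planned; the fit on the arrays with bright acinar transcripts was added after seeing the data.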

Additional observations from a re-analysis of the deposited data

Results flagged for a closer look

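Reg4 and Saa3 moved in opposite directions in the arrays that sex-linked transcripts put among females and males. For Reg4 replacement 2 and 3 lay below control 1 (log2 difference -1.39) and replacement 1 above control 2 and 3 (0.21), so the female difference minus the male one was -1.6. For Saa3 the differences were 0.90 and -0.30, and the female one exceeded the male one by 1.2. These differences between the sexes were not tested, each sex holds 1 control replicate, and the acinar signal differs between the same arrays.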

How the results depend on the processing

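Reg1, Reg3a, Reg3b, Reg3g and Saa1 kept their direction in every alternative run in which they were tested. Over the alternatives the difference ranged from 1.52 to 3.59 for Reg1 (adjusted p 0.00201 to 0.266), from 1.96 to 4.68 for Reg3g (3.67e-04 to 0.274), from 0.44 to 3.63 for Reg3b (0.0135 to 0.543) and from 1.53 to 2.64 for Saa1 (0.00524 to 0.336). Reg4 and Saa3 changed sign only without control 1; leaving out replicates gave -1.33 to 0.0915 for Reg4 and -0.43 to 0.97 for Saa3. The cause of the changes below was not tested.

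Against 3 called members, 580 higher and 605 lower genes, limma gave 0 members (3 at an unadjusted p under 0.05), 70 and 92 genes with no filter, and 0 members (1 at an unadjusted p under 0.05), 12 and 20 genes without eBayes. Scaling to array medians gave 386 lower genes. With all 6 arrays separate 1118 genes were higher and 1234 lower, and with a replicate block on those 6 arrays 994 and 1108, where Reg3a passed (0.92, adjusted p = 0.0185). With a replicate block on averaged controls 150 and 96 genes and 0 members were called (4 members at an unadjusted p under 0.05). Samples of the same number did not deviate together (correlations -0.0549 to -0.000819 over genes). Since control 2 and control 3 were nearly alike, these correlations cannot decide whether samples were paired by number. Leaving out replicates gave 3 to 827 higher genes, 1 to 833 lower genes and 0 to 3 called members; 0 members were called without control 1, without control 2 and 3, and without replacement 3 (2, 5 and 3 at an unadjusted p under 0.05). Fits with 1 control replicate assume that it varies as the replacement replicates do. In the 3 arrays with bright acinar transcripts limma called 0 members, 0 higher and 0 lower genes (4, 1371 and 1500 at an unadjusted p under 0.05). Lcn2 and Saa2 were too dim to test.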
